A study of Mus musculus with 71 samples.

Results

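The genes described here are 10 regulators of the G1 phase, chosen by name: the D-type cyclin genes Ccnd1, Ccnd2 and Ccnd3, the E-type cyclin genes Ccne1 and Ccne2, the Cip/Kip inhibitor gene Cdkn1b, and the INK4 inhibitor genes Cdkn2a, Cdkn2b, Cdkn2c and Cdkn2d. They were 10 of the 24138 gene symbols in the RNA-seq tables and were listed there under 16 RefSeq accessions, of which 7, from 7 genes, averaged 10 or more normalized counts across the 4 libraries and were tested.

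D-type cyclins bind and activate CDK4 and CDK6, and E-type cyclins activate CDK2. These kinases phosphorylate the retinoblastoma protein and its relatives, which releases E2F factors and lets the cell enter S phase. INK4 proteins block CDK4 and CDK6, whereas p27Kip1, the product of Cdkn1b, acts mainly on CDK2 complexes. In mouse embryonic stem cells (mESCs) G1 is short, and the INK4-ARF locus, which holds Cdkn2a and Cdkn2b, is a well-known target of Polycomb and its histone mark H3K27me3 (trimethylation of lysine 27 of histone H3).

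The study asked how the linker histone H1 bears on H3K27me3, and compared WT R1 mESCs with H1-TKO mESCs, in which the genes H1c, H1d and H1e were targeted together by CRISPR/Cas9 with a guide conserved among them. The H1-TKO cells were grown from single-cell clones, so that genotype and clone cannot be told apart, and all cells were kept on gelatin with LIF. RNA-seq was read as 2 libraries per genotype and H3K27me3 ChIP-seq as 1 peak list per genotype; the other experiments of the series were not used here. The study describes the 2 RNA-seq libraries of a genotype as biologically independent, without saying whether they came from different clones, and p-values measure the spread between them.

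For the 4 RNA-seq libraries the genotype in the sample labels is the reverse of that inside the tables. Each library equalled 1 genotype column of the study's per-library source data in 100% of the 1999 rows compared, and this genotype was used. With the sample labels every RNA direction given below would turn round. The genotype of the H3K27me3 lists was taken from the sample labels and was not checked against source data. The targeted genes had low counts in all libraries, which the study describes as poly(A) RNA-seq. H1f2 (H1c) had normalized counts of 11.6 and 56.7 in WT, against 18.7 and 7.4 in H1-TKO. H1f3 (H1d) had 3.9 and 41.4 against 1.1 and 0.0, and H1f4 (H1e) had 5.4 and 19.6 against 0.0 and 2.1. H1f2 and H1f3 were tested and neither passed (adjusted p = 0.39 and 0.105, limma), and DESeq2 on the recovered reads called H1f3 lower, so RNA from these genes did not settle the labels. Genes with several accessions can be listed at 0 although cycling cells use them: Mcm5, Uhrf1, Slbp and Tpx2, and also Nanog, had several accessions each and all were at 0 in every library, so a value at or near 0 of such a gene does not show low RNA. The libraries held 6951619 to 10538507 recovered reads. Of 10 markers of pluripotent cells 8 had a mean of at least 10. The level summed over all 10 was 31491 and 43319 in WT and 54725 and 55122 in H1-TKO. Of the 8, 4 were called higher (9.84% over all accessions). Both edgeR and DESeq2 called 3, where Klf4 (2.73-fold) did not pass and Sox2 (2.06-fold) did. Klf4 had 673.4 and 1747.4 in WT, against 3142.3 and 2796.3 in H1-TKO. Tdgf1 was called lower (1.41-fold), and Pou5f1, Utf1 and Zfp42 overlapped and did not pass. Of 12 markers of differentiated cells 6 had a mean of at least 10, and the sum over all 12 was 3827 in WT library 1 against 924 in WT library 2 and 485 and 609 in H1-TKO. This sum was mostly 2 keratins: Krt8 had 1437.6 and 314.1 in WT against 72.7 and 112.7 in H1-TKO and was called lower, and Krt18 had 2291.0 and 511.6 against 352.6 and 417.1 and did not pass, while the low markers went either way between the WT libraries (Gata4, Cdx2 and Mixl1 higher in library 1, Sox1, T, Gata6 and Pax6 lower). Of 10 fibroblast markers 3 had a mean of at least 10, and the sums over all 10 were 301.0 to 353.7 in WT and 514.5 to 578.3 in H1-TKO. The 3 did not move together: Thy1 was higher in H1-TKO (109.4 and 125.4 against 449.5 and 510.8), Col1a1 was lower (195.5 and 148.3 against 34.2 and 53.7), and Col1a2 had 40.3 and 22.9 against 19.8 and 6.3 and did not pass. Of the others, Dcn, Fbln2, Lum, Pdgfrb and Postn were under 1. The part of these markers in the results below was not tested.

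In H1-TKO mESCs 3 of the 7 tested genes were lower and none was higher than in WT: Ccnd1, Ccne1 and Cdkn1b, which are a cyclin of each class and an inhibitor. The same counts, 3 and 0, came from edgeR and DESeq2 on the recovered reads, and at an unadjusted p under 0.05 limma gave 4 lower and 1 higher. Over all 11113 accessions tested, limma with Benjamini-Hochberg adjustment called 10.7% lower and 9.84% higher, or 20.5% in either direction, against 19.5% with edgeR and 21.7% with DESeq2. The groups did not overlap for 5 of the 7 on the lower side and for Cdkn2b on the higher side, against a background of 34.2% and 32.2%. The median difference of the 7 was -0.82 on the scale of log2(normalized count + 1), against -0.03 for all accessions tested.

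**Figure D1:**
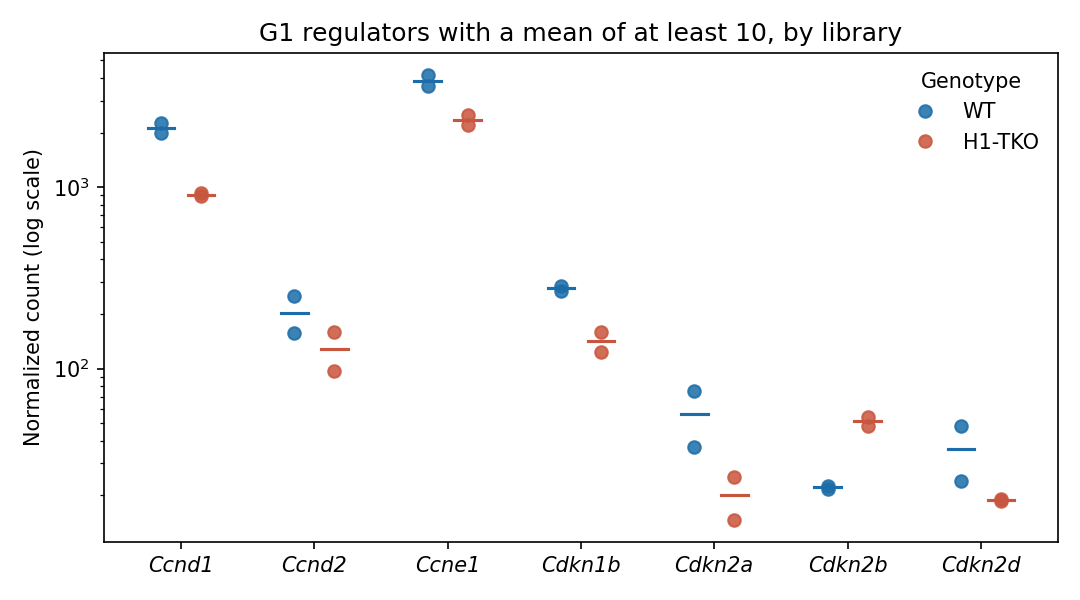
Normalized counts (log scale) of the 7 tested genes in each library, with WT in blue and H1-TKO in red; each point is a library and each short line the mean of 2. Ccnd2 is the gene whose groups overlap, and Cdkn2b is the one that sits higher in both H1-TKO libraries.

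Ccnd1 encodes cyclin D1, and its gene lies at chr7:152115836-152125774 on the minus strand (NCBIM37, the mm9 build). Its transcript (NM_007631) had normalized counts of 1989.2 and 2266.6 in WT, against 931.0 and 890.0 in H1-TKO. Both H1-TKO libraries were below both WT libraries. Ccnd1 was 2.33-fold lower, with a log2 difference of -1.22 (SE 0.14, 95% interval -1.54 to -0.90, adjusted p = 0.00343, limma). It was the member with the smallest adjusted p, and it passed whichever single library was left out, with differences of -1.32 to -1.13.

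Ccnd2 encodes cyclin D2 and lies at chr6:127075797-127101066 on the minus strand. It had normalized counts of 156.7 and 249.8 in WT, against 159.8 and 96.9 in H1-TKO, so the groups overlapped. The log2 difference was -0.66 (SE 0.34, 95% interval -1.47 to 0.14, adjusted p = 0.197, limma). It was -1.0 without WT library 1, -0.33 without WT library 2, -1.02 without H1-TKO library 1 and -0.31 without H1-TKO library 2.

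Ccnd3 encodes cyclin D3 and has several accessions, so its level cannot be read from these tables. Of its 3 accessions 2 were listed at 0 in every library, and the other, NM_007632, had normalized counts of 4.7 and 8.7 in WT, against 1.1 and 1.1 in H1-TKO, from 6, 8, 1 and 1 reads. It was under the filter and was not tested. Ccnd1 overlaps Oraov1 on the other strand, Ccnd2 a lincRNA (9330179D12Rik) and Ccnd3 Bysl, and the sources used here do not say whether counting used strand.

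Ccne1, the gene of cyclin E1, was the most abundant of the members with a single accession. It lies at chr7:38883003-38892553 on the minus strand, and NM_007633 had normalized counts of 4138.2 and 3593.0 in WT, against 2511.0 and 2186.5 in H1-TKO. Both H1-TKO libraries were below both WT libraries. The gene was 1.65-fold lower (log2 difference -0.72, SE 0.13, adjusted p = 0.0135, limma). The call did not hold without H1-TKO library 1 (-0.82, adjusted p = 0.0791) or without H1-TKO library 2 (-0.62, adjusted p = 0.192), where the lone H1-TKO library was assumed to vary like the other group. Ccne2, the gene of cyclin E2, has 3 accessions, and its level cannot be read either: 2 of them had no read, and NM_001037134 had 2.3 and 0.0 in WT, against 1.1 and 0.0 in H1-TKO. The gene overlaps Ints8.

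Per kilobase of exon, which allows a comparison between genes, levels were set side by side for the 6 members with a single accession; Cdkn2a was left out because its 2 accessions share exons. The mean level over the 4 libraries was 1553.6 normalized counts for Ccne1 and 406.2 for Ccnd1. The lowest library of Ccne1 (1093.2) was above the highest of Ccnd1 (606.0). Cdkn1b (45.9), Ccnd2 (29.1), Cdkn2b (26.3) and Cdkn2d (21.6) followed, and neighbours among these 4 overlapped between libraries. Their order differed between genotypes: Cdkn2b was the lowest of the 4 in WT (16.2 and 15.6) and had 38.8 and 34.7 in H1-TKO, where Cdkn1b had 27.1 and 34.9. The highest library of these 4 was 62.7, below the lowest of Ccnd1 (238.0).

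The 3 partner kinases were tested too, and none passed in limma, edgeR or DESeq2, nor at an unadjusted p under 0.05. Cdk4 had normalized counts of 3904.7 and 4462.3 in WT, against 3501.5 and 3790.5 in H1-TKO (log2 difference -0.20, SE 0.12, adjusted p = 0.285, limma). Cdk6 had 491.9 and 329.4 against 303.0 and 254.9 (-0.53, adjusted p = 0.151, limma), and the accession NM_183417 of Cdk2, whose other accession was at 0 in every library, had 31.0 and 21.8 against 19.8 and 10.5 (-0.80, adjusted p = 0.34, limma).

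**Figure D2:**
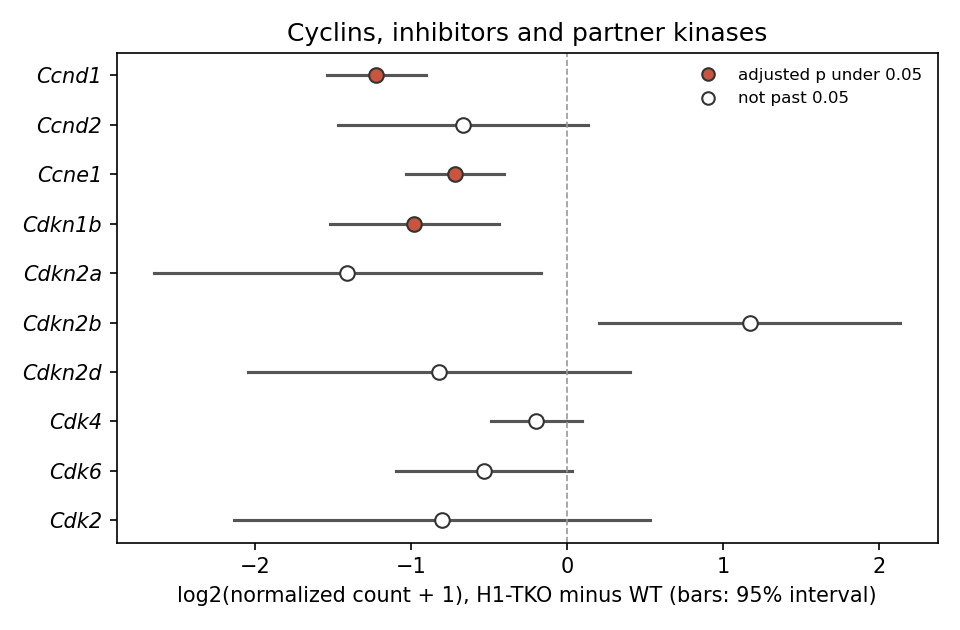
Difference of H1-TKO from WT on the scale of log2(normalized count + 1) for the 7 tested cyclin and inhibitor genes and 3 partner kinases, with 95% intervals from limma; filled points passed an adjusted p of 0.05. Ccnd1, Ccne1 and Cdkn1b are the filled points, and the interval of Cdkn2b lies above 0 although its adjusted p did not pass.

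Cdkn1b encodes p27Kip1 and lies at chr6:134870419-134875531 on the plus strand. NM_009875 had normalized counts of 285.5 and 268.3 in WT, against 123.4 and 159.0 in H1-TKO, with no overlap. It was 1.97-fold lower (log2 difference -0.98, SE 0.23, 95% interval -1.52 to -0.44, adjusted p = 0.0272, limma). The call was lost with no filter on low values (adjusted p = 0.0538), without H1-TKO library 1 (-0.80, adjusted p = 0.268) and without H1-TKO library 2 (-1.16, adjusted p = 0.106). The other Cip/Kip genes, with 2 accessions each, were below the filter: Cdkn1a (p21) had at the higher accession 5.4 and 6.5 in WT, against 2.2 and 3.2 in H1-TKO, and Cdkn1c (p57) had at most 1.6.

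The INK4-ARF locus makes 3 proteins from 2 genes. Cdkn2b encodes p15Ink4b. Cdkn2a has an upstream first exon for p19Arf, which restrains MDM2 and so stabilises p53, and a downstream first exon for p16Ink4a; both are joined to the same later exons. In NCBIM37, Cdkn2b lies at chr4:88952198-88956941 and Cdkn2a at chr4:88920377-88940557, both on the minus strand.

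Cdkn2a and Cdkn2b differed from WT in opposite directions, and neither passed the test. The p19Arf accession of Cdkn2a (NM_009877) had normalized counts of 37.2 and 75.3 in WT, against 25.3 and 14.7 in H1-TKO. Cdkn2b (NM_007670) had 22.5 and 21.8 in WT, against 54.0 and 48.4 in H1-TKO. The groups did not overlap for either gene. For Cdkn2a the log2 difference was -1.41 (SE 0.53, 95% interval -2.65 to -0.17, adjusted p = 0.0986, limma). For Cdkn2b it was 1.17 (SE 0.41, 95% interval 0.21 to 2.14, adjusted p = 0.0823, limma). Whether the 2 differences differ from each other was not tested. Without WT library 1 the log2 difference was -1.90 for Cdkn2a and 1.19 for Cdkn2b, and without WT library 2 it was -0.91 and 1.15. Without H1-TKO library 1 it was -1.78 and 1.09, and without H1-TKO library 2 it was -1.04 and 1.25. Neither passed with edgeR on the recovered reads (adjusted p = 0.106 for Cdkn2a and 0.0893 for Cdkn2b) or with DESeq2 (0.116 and 0.169).

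The p16Ink4a accession (NM_001040654) had 0.0 and 3.3 normalized counts in WT, from 0 and 3 reads, and no read in H1-TKO. How reads on exons shared by accessions were counted is not given in the sources used here. Of the symbols with several accessions 49.6% had no accession with a mean of 1 or more, against 30.6% of those with a single accession, so values of genes with several accessions, among members Ccnd3, Ccne2, Cdkn2a and Cdkn2c, are those of an accession and uncertain as levels of the gene.

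Cdkn2d encodes p19Ink4d, lies at chr9:21092907-21095653 on the minus strand, and had normalized counts of 24.1 and 48.0 in WT, against 18.7 and 19.0 in H1-TKO. The groups did not overlap, but the log2 difference of -0.82 (SE 0.52, adjusted p = 0.29, limma) did not pass. It was -1.30 without WT library 1 and -0.34 without WT library 2, and passed in neither case. Cdkn2c encodes p18Ink4c, lies at chr4:109333481-109339794 on the minus strand, and stayed below the filter: NM_001301368 had 2.3 and 6.5 in WT, against 6.6 and 4.2 in H1-TKO, and NM_007671 had at most 0.8.

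H3K27me3 was read from the peak lists, which held 6957 peaks in WT (median MACS score 78.8) and 6262 in H1-TKO (median 76.2). The score is minus 10 times the log10 of the peak's p-value; it moves with depth. The series has 2 H3K27me3 ChIP-seq replicates per genotype, of which the list of replicate 1 was used, so no difference was tested. A peak lay within 2 kb of a transcription start in 3 of the 10 members in WT (Ccnd2, Cdkn2b and Cdkn2c) and in 4 in H1-TKO (the same 3 and Cdkn2a). Over 22367 protein-coding genes the shares were 14.3% in WT and 13.0% in H1-TKO. Ccnd1, Ccnd3, Ccne1, Ccne2, Cdkn1b and Cdkn2d had no peak within 2 kb of a start in either list, so the 3 genes that were called lower in RNA had none in WT or H1-TKO.

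At Cdkn2b both lists had a peak in the intron, about 2 kb inside the gene. It lay at chr4:88954342-88955013 in WT (score 69.11) and at chr4:88953953-88955087 in H1-TKO (score 92.9), and the H1-TKO peak covered all 672 bp of the WT peak. With a window of 1 kb it no longer counted in either list. At Cdkn2a, H1-TKO had 2 peaks that WT lacked. The first, at chr4:88941292-88942263 (score 86.94), ended 735 bp upstream of the p19Arf start, and the second, at chr4:88929855-88930839 (score 68.43), lay in the intron of the p19Arf transcript 1759 bp upstream of the p16Ink4a start. WT had a peak of score 50.1, near the lowest score in its list (50.01), beyond the 3′ end of the gene. A peak missing from a list can be one below the caller's limit.

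**Figure D3:**
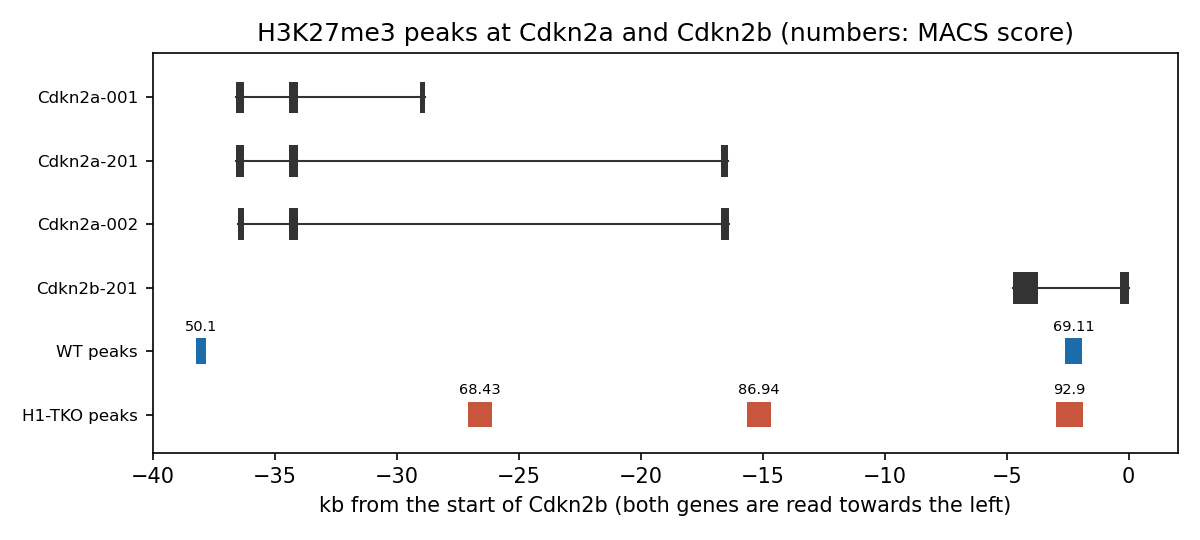
Map of the Cdkn2a-Cdkn2b locus in kb from the start of Cdkn2b, with exons of the GENCODE M1 transcripts in black (Cdkn2a-001 makes p16Ink4a, Cdkn2a-201 and Cdkn2a-002 start at the p19Arf exon), WT peaks in blue and H1-TKO peaks in red, each with its MACS score. Both lists have a peak in the Cdkn2b intron (69.11 and 92.9), and H1-TKO has 2 more near the Cdkn2a starts.

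The central 180 bases of 2 of these peaks are shown because their CpG content differs; they are read from NCBIM37 on the plus strand, and capitals mark CpG. The WT peak in the Cdkn2b intron (shown, chr4:88954587-88954766) holds no CpG in its whole 672 bp, and the H1-TKO peak there holds 3. The H1-TKO peak upstream of p19Arf holds 35 in its whole 972 bp, of which 2 lie in the stretch shown (chr4:88941687-88941866).
Cdkn2b intron: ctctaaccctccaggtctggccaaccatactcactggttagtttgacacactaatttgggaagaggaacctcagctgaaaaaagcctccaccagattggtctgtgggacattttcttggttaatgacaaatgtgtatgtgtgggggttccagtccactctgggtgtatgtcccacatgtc
Cdkn2a upstream: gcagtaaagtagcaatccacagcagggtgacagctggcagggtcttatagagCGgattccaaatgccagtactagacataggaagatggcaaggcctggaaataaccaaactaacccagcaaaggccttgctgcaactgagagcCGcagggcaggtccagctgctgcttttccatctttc
The ratio of observed to expected CpG was 0.05 in the H1-TKO peak at Cdkn2b and 0.50 and 0.24 in those at Cdkn2a, against a median of 0.41 over the H1-TKO peaks and 0.43 over the WT peaks.

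Cdkn2c carried the highest-scoring peak of any member. It lay over the first exons and the intron at chr4:109336294-109339035 in WT (score 394.38) and chr4:109336513-109339210 in H1-TKO (score 196.93), and the overlap was 92.0% of the WT peak and 93.5% of the H1-TKO peak. The WT score was above 98.2% of its list and the H1-TKO score above 89.8% of its own. This peak was CpG-rich, with 109 CpG in WT and 122 in H1-TKO (observed to expected 0.67 and 0.72). The accessions of Cdkn2c were under the filter, as given above, which does not give the level of the gene.

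At Ccnd2 the WT peak at chr6:127099124-127101122 (score 138.33) spanned the start and nearly 2 kb of the gene. In H1-TKO a peak of 614 bp (chr6:127100202-127100815, score 62.59) lay inside it and covered 30.7% of it, and a further one (chr6:127098520-127098997, score 54.48) lay over the second exon. Upstream of the gene both lists had a peak, with scores of 77.45 and 61.46. The WT score of 138.33 was above 77.7% of its list, and 62.59 above 32.8% of the H1-TKO list. Among members, a score of at least 100 near a start was met by Ccnd2 and Cdkn2c in WT and by Cdkn2c alone in H1-TKO, against 7.65% and 6.69% of all protein-coding genes.

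**Figure D4:**
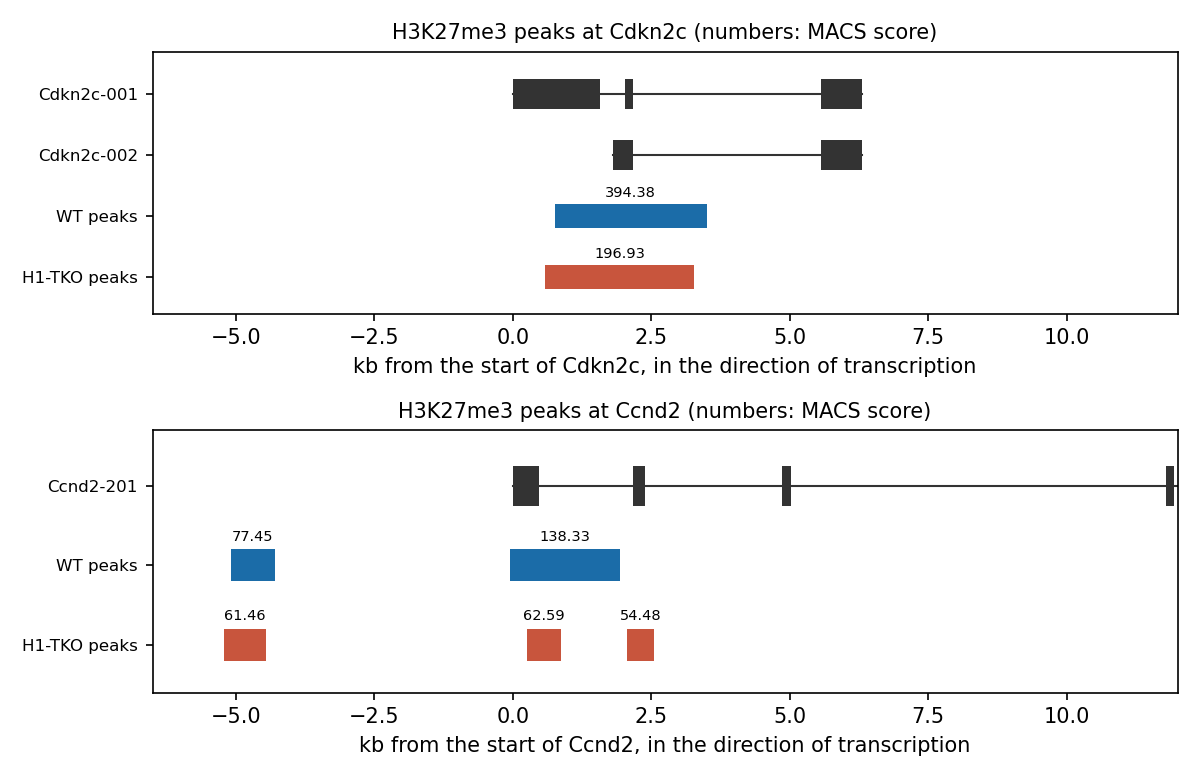
H3K27me3 peaks at Cdkn2c and Ccnd2 in kb from the start of each gene, in the direction of transcription, with exons in black, WT peaks in blue and H1-TKO peaks in red, each with its MACS score; the Ccnd2 gene runs on past the right edge. The Cdkn2c peaks overlap over most of their width, with scores of 394.38 and 196.93, and the WT peak over the Ccnd2 start (138.33) is matched in H1-TKO by a narrower one (62.59).

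Of the neighbours of the INK4-ARF locus, Mtap had normalized counts of 1499.6 and 1407.1 in WT, against 1582.2 and 1609.3 in H1-TKO (log2 difference 0.14, adjusted p = 0.467, limma). Dmrta1 had 5.4 and 2.2 against no read in H1-TKO, and its start carried a peak with scores of 190.47 in WT and 197.91 in H1-TKO.

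Promoters of 7 of the 10 members, 10 in all, were in a RefSeq table (GRCm38.p6); those of Ccnd1, Ccnd2 and Ccne2 were not. The 250 bases upstream of each start were searched on both strands for the E2F core, spelled TTNNCGC with C or G at each N. A match was present in 2 of the 10, upstream of p19Arf and of the first start of Cdkn2c, and in 7.89% of 32851 promoters of the same length. They are shown 5′ to 3′ on the strand of the gene with the match in capitals, 98 and 25 bases upstream of the start, at chr4:89294620-89294869 and chr4:109666757-109667006 of GRCm38.p6.
Cdkn2a p19Arf: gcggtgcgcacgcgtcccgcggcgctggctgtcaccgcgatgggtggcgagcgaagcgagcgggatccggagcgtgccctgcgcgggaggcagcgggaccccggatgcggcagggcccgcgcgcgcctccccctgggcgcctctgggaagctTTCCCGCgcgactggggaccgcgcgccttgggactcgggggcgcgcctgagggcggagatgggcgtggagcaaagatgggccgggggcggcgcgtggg
Cdkn2c start 1: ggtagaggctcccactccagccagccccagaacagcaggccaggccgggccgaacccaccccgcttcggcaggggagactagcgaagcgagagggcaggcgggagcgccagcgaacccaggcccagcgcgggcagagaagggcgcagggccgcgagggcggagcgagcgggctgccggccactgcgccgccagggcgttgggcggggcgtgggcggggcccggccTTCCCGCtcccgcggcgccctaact
A match is a description and not a binding site. In RNA the p19Arf accession had a log2 difference of -1.41 that did not pass, and Cdkn2c was not tested. The ratio of observed to expected CpG was at least 0.6 in 7 of the 10 promoters, against 34.0% of all. It was 1.08 upstream of p19Arf, 0.32 upstream of p16Ink4a, 0.67 for Cdkn2b, 0.95 for Ccne1 and 1.08 for Cdkn1b. Ccne1 and Cdkn1b, with CpG-rich promoters, had no H3K27me3 peak near a start.

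The pathway around these genes was read from lists. Of 15 other cyclins, CDKs and their phosphatases 13 were tested, and 4 were higher and none lower in H1-TKO (over all accessions 9.84% and 10.7%), with a median of 0.35: Ccnb1 and Ccnb2 (mitotic cyclins), Ccng1 (a p53 target) and Cdc25c (a CDK1 phosphatase). Cdc25c had normalized counts of 356.9 and 342.5 in WT, against 689.7 and 696.2 in H1-TKO (1.98-fold), and Ccnb2 had 1688.9 and 2016.8 against 2728.0 and 2731.0 (1.48-fold). Of 11 accessions of pocket proteins and E2F factors 2 were higher and 1 lower, beside the same shares. Rb1, the retinoblastoma protein that the cyclin D kinases act on, had 320.4 and 222.5 in WT, against 1141.5 and 955.3 in H1-TKO (log2 difference 1.96, SE 0.22, adjusted p = 0.00343, limma), a 3.90-fold difference. E2f5 (1.84-fold higher) also passed, though not with edgeR, and E2f8, a repressor of E2F targets, was 2.06-fold lower.

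Of 12 genes of the degradation of G1 cyclins and p27, 2 were lower and none higher (median -0.37), beside the 10.7% called lower over all accessions. Both are subunits of the SCF ubiquitin ligase: Cul1 had 2017.9 and 1599.1 in WT, against 905.7 and 868.9 in H1-TKO (2.02-fold lower), and Rbx1 had 519.0 and 399.2 against 252.3 and 223.3 (1.91-fold lower). Of 3 tested accessions of the ARF-p53 axis 1 was lower and none higher (median 0.85), beside the same 10.7%. It was the accession NM_001252261 of Npm1, whose protein binds p19Arf (1378.6 and 873.7 against 388.9 and 439.2, 2.65-fold). The 2 other Npm1 accessions were listed at 0 in every library. Mdm2 and Mdm4 were higher in both H1-TKO libraries, on few reads, and did not pass (adjusted p = 0.285 and 0.103, limma). Of 8 tested accessions of known regulators of the INK4-ARF locus 2 were lower and none higher (median -0.70), beside the same 10.7%. They were Cbx7, a Polycomb repressor (1083.0 and 1009.0 against 662.2 and 593.0, 1.67-fold), and Kdm2b, a CpG-binding demethylase of a Polycomb complex, by its accession NM_001003953 (498.1 and 411.2 against 108.0 and 155.9, 3.47-fold).

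Of 19 tested G1/S target genes of E2F 4 were lower and 1 higher (median -0.22), beside 20.5% called in either direction over all accessions; edgeR and DESeq2 called 2 of the list lower. Pcna, the sliding clamp of DNA replication, had 1459.3 and 2197.9 in WT, against 783.4 and 795.2 in H1-TKO (2.27-fold lower), and Cdc6, an origin licensing factor, by its accession NM_001025779, had 35.7 and 45.8 against 6.6 and 4.2 (6.58-fold lower on the log2(normalized count + 1) scale). Mcm2 and Mcm7 were the others lower (1.32-fold and 1.33-fold), of which neither passed with edgeR or DESeq2, and Gins1 was higher by its accession NM_027014 (1.59-fold). Of 11 tested G2/M genes Cenpf was higher (1.93-fold) and none lower, with a median of 0.30, beside 9.84% called higher over all accessions. In this list edgeR called 1 higher and DESeq2 2, and in limma 6 were higher at an unadjusted p under 0.05. Of the 18 accessions called in the lists around the members, 4 (Rb1, Npm1, Kdm2b and Pcna) passed whichever library was left out, and the other 14 were lost without H1-TKO library 1, H1-TKO library 2 or either of them. For the lists with no call in a direction, edgeR and DESeq2 gave none either, except 1 higher with DESeq2 in the ARF-p53 axis, and at an unadjusted p under 0.05 there was 1 higher among the degradation genes and 1 higher in the ARF-p53 axis. The share of cells in each phase was not measured in these files, and in bulk RNA fewer cells of a phase and less RNA per cell cannot be told apart. The study did follow the DNA content of both genotypes by flow cytometry, and those profiles were not used here.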

How the data were processed

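WT and H1-TKO mESCs were compared by RNA-seq (2 libraries each) and by lists of H3K27me3 peaks (1 each). Per the authors, paired reads were mapped with Subread, uniquely mapped reads were counted with featureCounts against the mm9 annotation, and gene counts were divided by a DESeq2 size factor; this normalized count is the deposited signal. All values (100%) were whole multiples of 1 read within a tolerance of 0.001, and 10538507 and 8292007 reads were recovered in WT and 6951619 and 7346122 in H1-TKO. The deposited score of a peak is the MACS score on mm9 (bowtie2).

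The sample labels of the RNA-seq libraries were not used for genotype, because the names inside the tables and the study's source data (1999 rows read, 18633 not) give the opposite. The growth text in the labels of the RNA-seq samples names HeLa cells, whereas their cell type is mESC. Members and lists were chosen with earlier results of these data known.

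limma 3.58.1 (R 4.3.3; eBayes with a trend) was run on log2(normalized count + 1) for the 11113 accessions with a mean of at least 10, with Benjamini-Hochberg adjustment over all of them and a threshold of 0.05. The step was tested on simulated data. On the recovered reads, edgeR 4.0.16 and DESeq2 1.42.0 served as alternatives, where edgeR called 19.5% and DESeq2 21.7% of accessions against 20.5% in limma. Other alternatives were the pseudocount (0.5 and 5), the filter (none and 100), the scaling, a replicate block and leaving out each library. Symbols came from a RefSeq table. Peaks were placed by an overlap of 1 bp with GENCODE M1 windows of 2 kb (alternatives 1 and 5 kb, the gene body, a score of 100, or 50% of the peak in the window). Genes named are all members, the targeted genes, Cdkn1a, Cdkn1c, the partner CDKs, Mtap and Dmrta1, and in each other list the accessions past the threshold (with more than 4, the 2 largest differences in each direction). Mcm2, Mcm7, Mdm2, Mdm4, the genes with all accessions at 0 and the markers that did not pass or were not tested were named after their values were seen.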

Additional observations from a re-analysis of the deposited data

How the results depend on the processing

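All 95 values of the members' differences under an alternative kept their sign. For the tested members other than Ccnd2 the groups did not overlap, so leaving out a library could not turn the sign. With no filter on low values, limma called 624 accessions higher and 697 lower of 20632 tested, against 1094 and 1188, and Cdkn1b (-0.98) no longer passed. Leaving out 1 library gave 199 to 2682 accessions higher and 386 to 2786 lower, the low counts being those with a lone H1-TKO library; the members' log2 differences were then 1.09 to 1.25 for Cdkn2b, -1.90 to -0.91 for Cdkn2a, -1.16 to -0.80 for Cdkn1b, -1.02 to -0.31 for Ccnd2, -1.30 to -0.34 for Cdkn2d, -1.32 to -1.13 for Ccnd1 and -0.82 to -0.62 for Ccne1. The cause was not tested. The number of members with a peak near a start in H1-TKO was 1 at a score of at least 100, where 6.69% of all protein-coding genes had one. Deviations of libraries with the same replicate number correlated at 0.011 over 2 pairs. This shows no strong effect shared by replicate number and cannot settle whether the samples were paired by design. With the replicate block Cdkn2a passed (-1.41, adjusted p = 0.038, limma), and no other member's call changed. Members near 20 normalized counts rest on few reads.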
